A study of Mus musculus with 47 samples.

Results

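The comparison of an isoleucine-restricted (IleR) diet with the Control diet in male brains rests on 7 RNA-seq libraries, 4 from Control mice (numbered 1, 3, 4 and 5) and 3 from IleR mice (numbered 13, 14 and 17). They were chosen by their column labels, which code sex as M and name the diet, and they are 7 of the 37 libraries with counts and of the 47 listed in the labels. Every animal was a homozygous 3xTg mouse, a model of Alzheimer's disease that carries disease alleles of human APP and tau and of presenilin 1. Diets began at 6 months of age and lasted 9 months. The Control diet was defined by its amino acids, and the IleR diet held less isoleucine. The other 7 male libraries came from mice on leucine-restricted (LeuR, 3) or valine-restricted (ValR, 4) diets, and 23 female (F) libraries covered the same 4 diets. RNA came from the left hemisphere by the methods, while the results of the study speak of whole brain. The labels give brain as the tissue, and their extraction text names liver.

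Isoleucine is 1 of the branched-chain amino acids, which animals take from food and break down in mitochondria. When an amino acid runs short, uncharged tRNA activates the kinase GCN2, translation slows, and the transcription factor ATF4 turns on genes for amino acid synthesis, transport and tRNA charging, the integrated stress response. A brain hemisphere is also a mixture of regions with very different transcriptomes: granule and Purkinje cells mark the cerebellum, Hox genes and monoamine or glycine markers mark the hindbrain, and TBR1 and its partners mark cortical projection neurons. The share of each region in a dissected piece sets the level of many genes in bulk RNA, where fewer cells of a type and less RNA per cell cannot be told apart.

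Totals of expected counts ran from 15281678 to 25722333 over the 7 libraries, and mitochondrial transcripts made up 3.6% to 5.13% of them. Sex labels held in all 37 libraries: the highest Xist count in a male library was 8, the lowest in a female library was 6885, and the Y-linked genes examined were at 0 in every female library. No 2 libraries of a group agreed within sampling noise. IleR 14 was the deepest library. IleR 13 and Control 4 stood apart from their groups in regional markers, and the counts of called genes, the dopamine genes, Banp and Abca7 are also given without them below.

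Of 22197 genes tested, 1472 rose (6.63%) and 1925 fell (8.67%) in IleR relative to Control at an adjusted p under 0.05 (quasi-likelihood test of edgeR, p-values adjusted by Benjamini-Hochberg). In 3278 genes (14.8%) all 3 IleR libraries lay above all 4 Control libraries, and in 3215 (14.5%) all lay below. Without IleR 14, 737 genes rose and 1110 fell, and without IleR 17 the counts were 648 and 1190. Without Control 1, 828 genes rose, and without Control 3, 873 rose. Without IleR 13 the counts were 988 and 1494, and without Control 4 they were 1970 and 2387.

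All 11 granule cell genes listed were tested, and 10 rose (90.9% against 6.63% over all genes). Their median difference was 3.91 on the log2 scale against 0.04 over all genes. All 10 genes of the list for Purkinje cells and other cerebellar cells rose, with a median of 4.31. Gabra6, the GABA-A receptor subunit of granule cells, was at 0, 0, 0.0636 and 0.0559 CPM (counts scaled to the TMM-adjusted library size) in Control 1, 3, 4 and 5, and at 99.6, 175 and 298 CPM in IleR 13, 14 and 17. Against a floor of 3 counts per Control library it was at least 1031-fold higher. Cbln3, a granule cell partner of cerebellin, was at 0.272, 0.237, 0.445 and 1.06 CPM in Control and at 285, 464 and 765 CPM in IleR, a difference of 9.91 ± 1.41 (log2, SE; adjusted p = 0.00118, edgeR). In the Purkinje cell gene Pcp2, Control libraries lay between 0 and 0.573 CPM and IleR libraries at 45.7, 79.2 and 150.0 CPM. Car8, an inhibitor of inositol trisphosphate binding in Purkinje cells, was between 5.92 and 6.93 CPM in Control and at 147, 222 and 438 CPM in IleR (log2 difference 5.38 ± 0.79). The order was the same in each of these genes, with IleR 17 highest and IleR 13 lowest.

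Brainstem genes rose as well. Of 18 genes for brainstem nuclei, 14 rose (77.8% against 6.63% over all genes) and none fell. Their median log2 difference was 4.92, or 4.51 with genes at the floor set to their bound. The glycine transporter Slc6a5 was at 0.0681, 0.237, 2.74 and 0.112 CPM in Control 1, 3, 4 and 5 and at 160.3, 136 and 47.9 CPM in IleR 13, 14 and 17 (log2 difference 7.20 ± 1.49, adjusted p = 0.00611, edgeR). IleR 17, the highest library for the cerebellar genes above, was the lowest of its group for Slc6a5, while Skor1 and Tlx3 were highest in it. Skor1, a transcriptional corepressor, was at 0 to 0.272 CPM in Control and at 5.46, 8.66 and 11.7 CPM in IleR. Tlx3, a hindbrain and spinal transcription factor, was at 0 in all 4 Control libraries and at 3.35, 3.58 and 4.74 CPM in IleR, at least 21.0-fold higher against the floor. Of 30 Hox genes, 14 were tested and 3 rose, among them Hoxa2 and Hoxb2, a share of 21.4%. The test took genes with a count in every library of some diet group. Control held almost no Hox counts, so these genes entered mainly through groups where they were high. Their share thus cannot be set against the 6.63% over all genes. Hoxb2 passed in none of the 7 fits that left out 1 library, and Hoxa2 only in that without Control 4. Hoxa2 was at 0 in every Control library and at 1.49, 1.47 and 0.652 CPM in IleR.

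The 3 IleR libraries differed among themselves in which hindbrain and midbrain genes they held. The 14 tested Hox genes summed to 11.8, 23.2 and 3.67 CPM in IleR 13, 14 and 17. Their sums were 0.0681, 0.118, 0.318 and 0.223 CPM in Control 1, 3, 4 and 5. In these sums IleR 14 was the highest library and IleR 17 the lowest of its group. Of the 14 genes, 12 lay above all Control libraries. That count cannot be set against the 14.8% over all genes, since genes near 0 in Control entered the test only through restricted diet groups. The mean log2 CPM of 3 of the 6 midbrain dopamine neuron genes, those tested in both sexes, was 4.43 in IleR 13, 2.09 in IleR 14 and 1.49 in IleR 17, and in Control -1.59, -0.89, 1.88 and -0.61, with Control 4 highest. The dopamine transporter Slc6a3, named after its values were seen, was at 88.1 CPM in IleR 13 and 31.0 CPM in Control 4, and at or under 2.49 CPM in the other 5 libraries, and no member of the dopamine list passed the test. The sign of its difference turned without IleR 13, from 1.97 to -2.17 on the log2 scale. Tyrosine hydroxylase (Th), which makes the dopamine precursor, was at 1.5, 0.947, 12.8 and 1.12 CPM in Control and at 44.3, 12.2 and 7.58 CPM in IleR, with a log2 difference of 2.39 ± 0.92 that did not pass (adjusted p = 0.0976, edgeR). Without Control 4 it passed at 4.17 (adjusted p = 0.00395, edgeR), as did Slc6a3 at 9.31 (adjusted p = 0.0140), and without IleR 13 the difference in Th was 1.27 (adjusted p = 0.448).

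**Figure D1:**
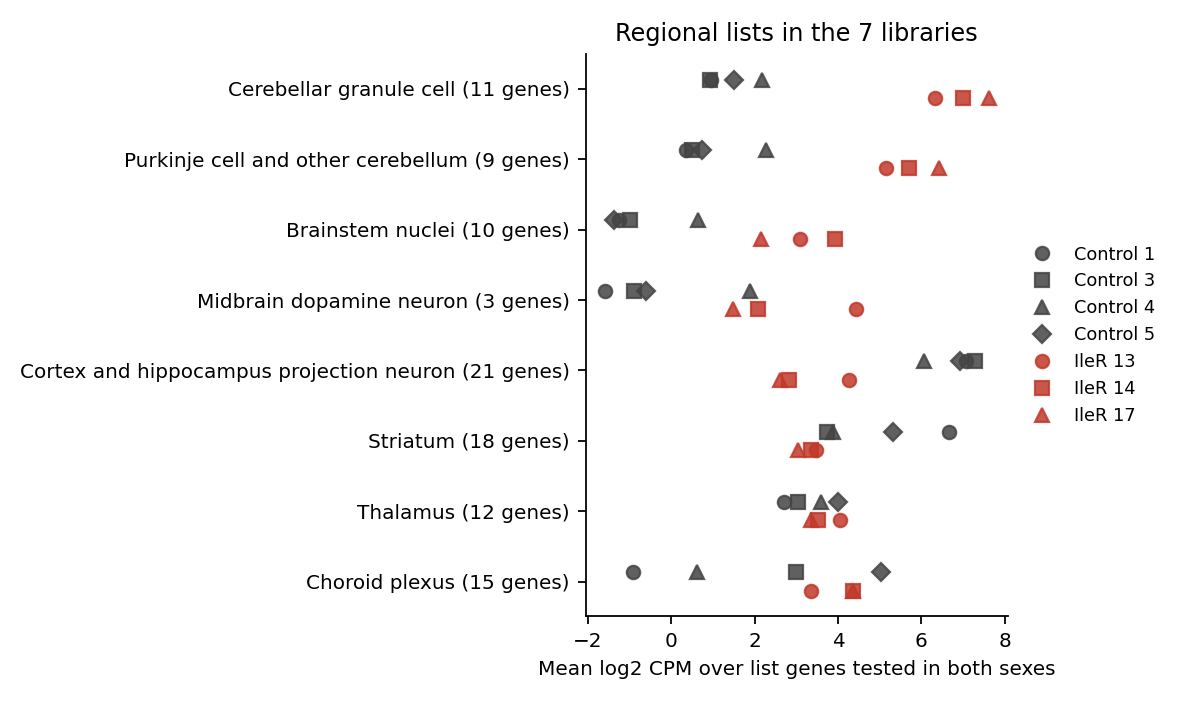
Mean log2 CPM over the genes of 8 regional lists that were tested in both sexes (rows, with the number of genes) in each of the 4 Control (grey) and 3 IleR (red) libraries, 1 symbol a library. Cerebellar and brainstem lists are higher and the cortical list lower in all IleR libraries, while striatal, thalamic and choroid plexus levels vary widely within Control.

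Cortical genes fell. Of 21 genes of cortical and hippocampal projection neurons, 16 fell (76.2% against 8.67% over all genes) and none rose. Their median log2 difference was -3.58, and 18 lay below all Control libraries, against 14.5% over all genes. Tbr1, a transcription factor of deep-layer cortical neurons, was at 167, 173, 61.5 and 161 CPM in Control 1, 3, 4 and 5 and at 2.36, 0.753 and 0.592 CPM in IleR 13, 14 and 17. It fell by 6.88 on the log2 scale (SE 0.93, adjusted p = 9.87e-04, edgeR). Fezf2, a gene of subcerebral projection neurons, was between 17.8 and 43.9 CPM in Control and at 2.42, 0.0377 and 0 CPM in IleR, and Mef2c fell by 3.58 ± 0.48 (log2). Control 4 was the lowest Control library for Tbr1 and Mef2c but stayed well above every IleR library. Among the 10 genes with the largest falls were 3 without an established name. Of these, 9130024F11Rik was at 6.11 to 20.8 CPM in Control and at most 0.124 CPM in IleR, at least 94.8-fold lower against the floor. Gm11549 and Gm19410 fell by 6.99 and 5.11 on the log2 scale. Kcnj4, an inward rectifier potassium channel of the forebrain, fell by 5.33 (SE 0.98), and Dkkl1 by 5.05 (SE 0.55).

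Striatal genes followed the cortex less evenly. Of 18 striatal genes, 6 fell (33.3% against 8.67% over all genes) and none rose, with a median log2 difference of -1.64. The adenosine receptor Adora2a of indirect-pathway neurons was at 93.2, 7.57, 2.23 and 32.6 CPM in Control and at 1.8, 1.81 and 1.42 CPM in IleR, a fall of 4.33 ± 1.03 (log2). Adora2a did not pass in 2 of the 7 fits that left out 1 library. In its CPM the Control libraries spread widely. Control 1 was the highest library and Control 4 the lowest of its group, still above every IleR library. None of 12 thalamic genes and none of 15 choroid plexus genes passed the test. Choroid plexus levels ran from -0.91 in Control 1 to 5.03 in Control 5 (mean log2 CPM) and covered the IleR range of 3.35 to 4.36. Among interneuron genes, 6 of 16 fell (37.5%) and 3 rose (18.75%, against 6.63% over all genes). Among them were Vip (-3.52 ± 0.50) and Calb2 (3.46 ± 0.72). Vip marks a cortical interneuron class and Calb2, calretinin, is also abundant in cerebellar granule cells. Of 25 glutamate receptor genes, 6 rose (24%) and 11 fell (44%). The forebrain NMDA subunit Grin2b fell by 2.52 ± 0.43 (log2).

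A single score placed every library on the axis between hindbrain and cortex. It was the mean log2 CPM of 31 cerebellar, Hox and brainstem genes minus that of 21 cortical and hippocampal genes, restricted to genes tested in both sexes. The male Control libraries scored -7.13, -7.20, -4.50 and -6.69, and the IleR libraries 0.40, 2.60 and 2.58. The groups did not overlap, and their means differed by 8.24 with a pooled SD of 1.27. The exact two-sided permutation test gave p = 0.0571, the smallest that 35 arrangements of 3 against 4 libraries allow. The ValR libraries scored 2.66 to 3.49 and the LeuR libraries -2.95 to 2.13, so all 3 restricted male groups lay above Control. The 23 female libraries ran from -7.22 to 3.26 with group medians between -5.57 and -4.96, and 1 of them lay above the lowest male IleR library. The 5 female IleR libraries ran from -7.22 to -0.85 and the 6 female Control libraries from -7.14 to 0.14. In the males, diet and the regional makeup of the sample cannot be told apart.

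**Figure D2:**
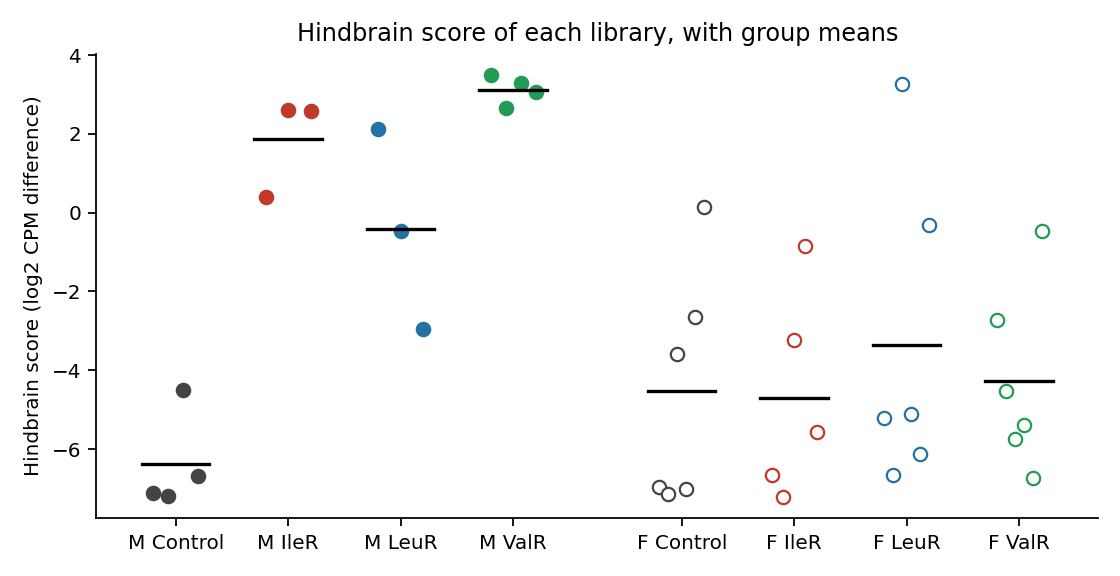
Hindbrain score of each library (difference of mean log2 CPM, vertical axis) for the 4 diets in male (filled) and female (open) libraries, with bars at the group means. Male Control libraries sit between -7.20 and -4.50 and male IleR libraries between 0.40 and 2.60, while the female groups overlap.

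The female libraries, which took no part in the male comparison, were used to sort genes by how they followed the score. With diet as a covariate, 4529 of 20344 genes rose with the score (22.3%) and 4878 fell with it (24%). Across 20024 genes outside the score, the female slope and the male IleR difference had a Pearson correlation of 0.730 and a Spearman correlation of 0.686, which describes genes and not independent replicates. Of the 4497 genes that rose with the score in females, 1185 rose in male IleR and 0 fell. Of the 4824 that fell with it, 1785 fell and 2 rose. The 2 exceptions were Slc5a7 and Slc18a3, the choline and vesicular acetylcholine transporters of cholinergic neurons, at 64.2, 47.0 and 5.81 CPM and 16.9, 13.7 and 0.533 CPM in IleR 13, 14 and 17, so that IleR 17 lay within the Control range of both. Each did not pass in 5 of the 7 fits that left out 1 library, all but those without Control 1 or IleR 17. Together these classes held 34.9% and 52.6% of all calls. The class that followed the score in neither direction held 10703 genes, of which 160 rose (1.49%) and 114 fell (1.07%), 8.07% of all calls. These counts moved with single libraries: 448 rose and 280 fell without Control 4, 53 and 59 without Control 1, 57 and 45 without Control 3, 43 and 46 without IleR 13, 34 and 25 without IleR 14, and 81 and 67 without IleR 17. Without Control 5, 53 fell. A further 2121 genes were not tested in females, of which 98 rose and 10 fell, among them Hoxa2, Hoxb2 and Tlx3. Few female libraries reached the scores of the male IleR group, so the class describes the range the females covered.

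**Figure D3:**
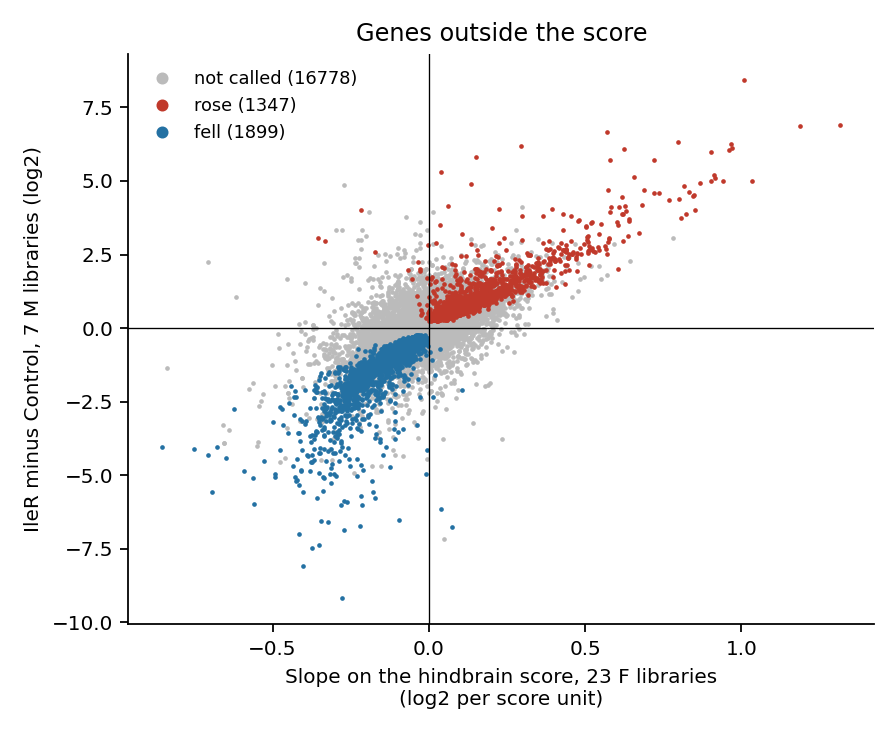
Each point is 1 of 20024 genes: its slope on the hindbrain score in 23 female libraries (log2 per score unit, horizontal) against its IleR minus Control difference in 7 male libraries (log2, vertical). Most called genes lie in the upper right (rose, red; 1185 of the class that rises with the score) and lower left (fell, blue; 1785 of the class that falls with it).

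Outside the region-tracking classes and the regional lists, 98 genes rose and 62 fell among those with no overlap between groups and a mean of at least 1 log2 CPM. The 6 with the largest rise were Gpnmb, Ngfr, Fzd10, Itgax, Hcn4 and Creb5. Gpnmb, a glycoprotein of phagocytic microglia, was at 3.95, 4.44, 5.54 and 7.21 CPM in Control 1, 3, 4 and 5 and at 65.9, 48.9 and 64.0 CPM in IleR 13, 14 and 17, a log2 difference of 3.49 ± 0.63 (adjusted p = 0.00291, edgeR). The integrin Itgax (CD11c) went from 1.43, 1.54, 2.55 and 3.85 CPM to 7.88, 5.12 and 6.93 CPM. Ngfr, the p75 neurotrophin receptor, was between 1.83 and 3.37 CPM in Control and at 10.6, 9.08 and 10.2 CPM in IleR (2.07 ± 0.22). The Wnt receptor Fzd10, the pacemaker channel Hcn4 and the transcription factor Creb5 rose by 1.77, 1.34 and 1.27 (log2). Fzd10 and Hcn4 each did not pass in 1 of the 7 fits that left out 1 library.

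The 6 with the largest fall were Rxfp1, Nr4a2, Rtn4r, Grm2, Fgf5 and Nwd2. Rxfp1, the relaxin receptor, was at 22.3, 38.8, 34.1 and 32.5 CPM in Control and at 2.30, 1.09 and 0.296 CPM in IleR, a fall of 4.71 ± 0.81 (log2, adjusted p = 0.00228, edgeR). Nr4a2, a nuclear receptor of dopamine and deep cortical neurons, went from 55.1, 89.0, 47.0 and 34.4 CPM to 11.8, 8.66 and 17.9 CPM, and did not pass without Control 3, IleR 13 or IleR 14 (adjusted p = 0.0642, 0.0743 and 0.102, edgeR). The Nogo receptor Rtn4r, the presynaptic glutamate receptor Grm2 and the growth factor Fgf5 fell by 1.81, 1.49 and 1.32 on the log2 scale, and Nwd2 by 1.09. Fgf5 passed in only 2 of the 7 fits that left out 1 library, those without Control 4 or IleR 17. Without IleR 14 Rtn4r, Grm2 and Nwd2 did not pass (adjusted p = 0.0553, 0.0610 and 0.0644, edgeR), nor did Nwd2 without IleR 17 (adjusted p = 0.0547). The class says only that the slope in females did not pass the test, and the 6 differences were smaller with a regional covariate in 37 libraries. With the hindbrain score as covariate in 37 libraries Rxfp1, Nr4a2, Rtn4r and Grm2 differed by -3.52, -1.42, -1.08 and -0.69, and with 3 regional levels in its place by -2.42, -0.88, -0.63 and -0.24. Of 24 immediate early genes, 14 fell (58.3% against 8.67% over all genes) and none rose (median -1.72). Of the 14, 13 fell with the score in females, and Nr4a2 was the other one.

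**Figure D4:**
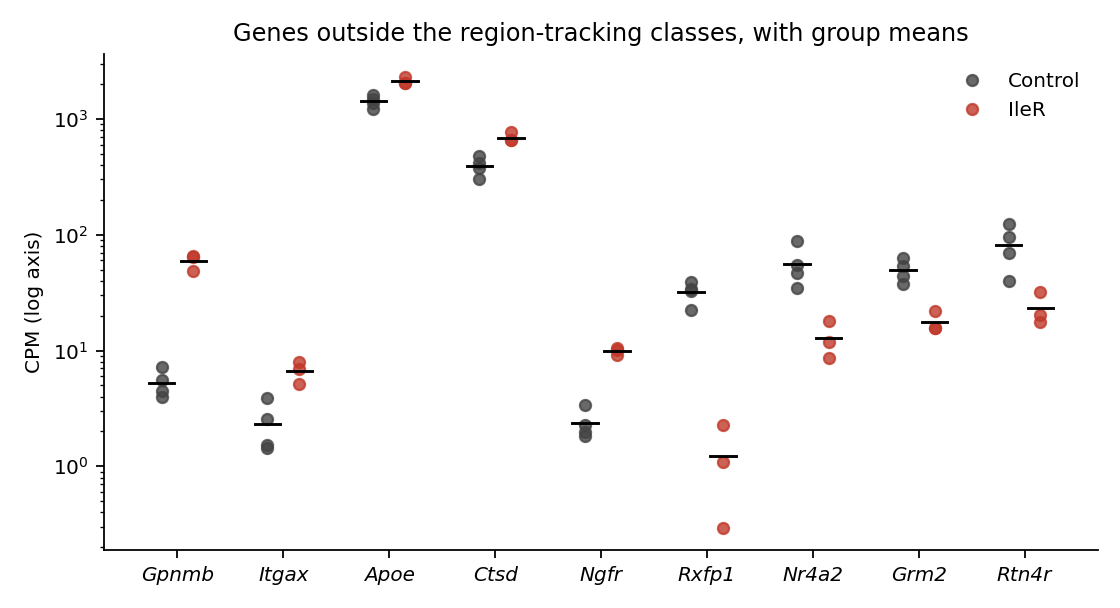
CPM on a log axis in each Control (grey) and IleR (red) library, with bars at the group means, for 9 genes whose slope on the hindbrain score in females did not pass the test. IleR libraries lie above all Control libraries for Gpnmb, Itgax, Apoe, Ctsd and Ngfr and below them for Rxfp1, Nr4a2, Grm2 and Rtn4r. With 3 regional levels as covariates the difference in Grm2 goes from -1.49 to -0.24 and that in Nr4a2 from -2.14 to -0.88 (log2).

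Of 20 genes of the disease-associated state, 5 rose and none fell, with a median log2 difference of 0.72, and 15 lay above all Control libraries. Over all genes 6.63% rose and 14.8% lay above all Control libraries. Gpnmb alone of the 5 passed in every fit that left out 1 library. Itgax did not pass without IleR 13, Spp1 without Control 1, Control 3 or IleR 13, and Ctsd in 5 of the 7 fits, all but those without Control 4 or Control 5. Gpnmb, Itgax, Apoe and Ctsd were in the class that followed the score in neither direction, and Spp1 in the class that rose with it. Ctsd, named because only 5 members rose, encodes a lysosomal protease. Apoe, the lipid carrier, was at 1229.7, 1475, 1606 and 1367 CPM in Control and at 2317, 2028 and 2045 CPM in IleR (0.59 ± 0.15, adjusted p = 0.0204, edgeR), and did not pass in 5 of the 7 fits that left out 1 library, all but those without Control 3 or Control 4 (adjusted p = 0.0514 to 0.0974). The receptor Trem2, which the state depends on, was at 10.0, 13.7, 14.8 and 14.5 CPM and at 24.9, 17.1 and 21.1 CPM, and did not pass (adjusted p = 0.0888), though it did in a fit of only these 7 libraries (0.66, adjusted p = 0.0447, edgeR). Of 14 homeostatic microglial genes, 4 fell (28.6% against 8.67% over all genes) and none rose. Among the 4 were Tmem119 (-1.04 ± 0.26) and P2ry12 (-1.17 ± 0.36), and all 4 fell with the score in females. Neither Tmem119 nor P2ry12 passed without Control 1, Control 3, IleR 14 or IleR 17, and P2ry12 did not pass without Control 5. With the score as covariate in 37 libraries, all 14 homeostatic genes had a positive difference, with a median of 0.50 (log2), against -0.48 without it in the male comparison. The summed level of the homeostatic list was 439 to 505 CPM in Control and 320 to 495 CPM in IleR. None of 18 oligodendrocyte genes passed, though 9 did not overlap, and their list summed to 5433 to 11406 CPM in Control and to 12072 to 17423 CPM in IleR. The part of this difference in the Apoe result was not tested. Among astrocyte genes, 5 of 15 rose (33.3%) and 1 fell (6.67%), all in the region-tracking classes. Slc4a4 and Aqp4 rose by 1.21 and 1.36 (log2), while the glutamate transporter Slc1a2 fell by 0.97.

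Of 27 targets of the integrated stress response, all tested, 13 rose, none fell and 14 did not pass, with a median log2 difference of 0.44 and 4 negative differences, and 15 lay above all Control libraries. Over all genes 6.63% rose and 14.8% lay above all Control libraries. The list summed to 1061 to 1170.3 CPM in the 4 Control libraries and to 1365 to 1547 CPM in the 3 IleR libraries, with no overlap. The 4 with the smallest p-values were Shmt2 (0.86 ± 0.13), Aldh1l2 (1.66 ± 0.26) and Mthfd2 (1.20 ± 0.26), enzymes of mitochondrial one-carbon metabolism, and the transcription factor Atf5 (0.84 ± 0.15). Without IleR 14, 4 of the 27 rose, and with any other library left out 11 or 12 did. None passed in the fit with the hindbrain score as a covariate. Shmt2, Aldh1l2 and Mthfd2 rose with the hindbrain score in females, as did 7 of the 13 in all.

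The 5 that rose and followed the score in neither direction were Atf5, Asns, Chac1, Phgdh and Slc7a1. Atf5 was at 31.5, 35.9, 31.6 and 37.2 CPM in Control 1, 3, 4 and 5 and at 49.3, 69.4 and 64.4 CPM in IleR 13, 14 and 17 (adjusted p = 0.00234, edgeR). Asparagine synthetase (Asns) was at 101, 100.2, 89.9 and 94.9 CPM and at 117, 153 and 120.1 CPM, a difference of 0.43 ± 0.11 (adjusted p = 0.0196, edgeR). Chac1, which degrades glutathione, went from 7.90, 8.28, 7.00 and 7.37 CPM to 10.1, 17.4 and 12.0 CPM. Phgdh, the first enzyme of serine synthesis, went from 58.8, 74.7, 71.9 and 68.9 CPM to 102, 106 and 86.9 CPM. The cationic amino acid transporter Slc7a1 went from 72.9, 68.4, 51.9 and 66.5 CPM to 103, 121 and 76.9 CPM. IleR 14 was the highest library in all 5 genes, and no IleR library overlapped the Control libraries in any of them. Of the 5, only Atf5 passed without IleR 14, where Asns differed by 0.30 (adjusted p = 0.117, edgeR). Slc7a1 did not pass in 2 of the 7 fits that left out 1 library. Atf4 itself, which is regulated largely at translation, was at 131, 149, 99.4 and 130.4 CPM and at 101, 109.6 and 127 CPM, and did not pass (adjusted p = 0.445). Sesn2, a leucine sensor and ATF4 target that rose with the score in females, rose by 0.75 ± 0.18 but did not pass without IleR 14 (adjusted p = 0.0765, edgeR), and differed by 0.089 with the score as covariate in 37 libraries.

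Fgf21, the endocrine hormone of amino acid shortage and another ATF4 target, was named after its values were seen. It had 0 counts in all 4 Control libraries and 8, 25 and 5 counts in IleR 13, 14 and 17, which is at least 3.12-fold higher against the floor (adjusted p = 0.00836, edgeR). LeuR libraries held 1 to 2 counts and ValR libraries 0 to 7 counts. In females it was not tested, with 0 to 4 counts in IleR and 0 to 1 in Control. The count model rests on few reads in each library.

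**Figure D5:**
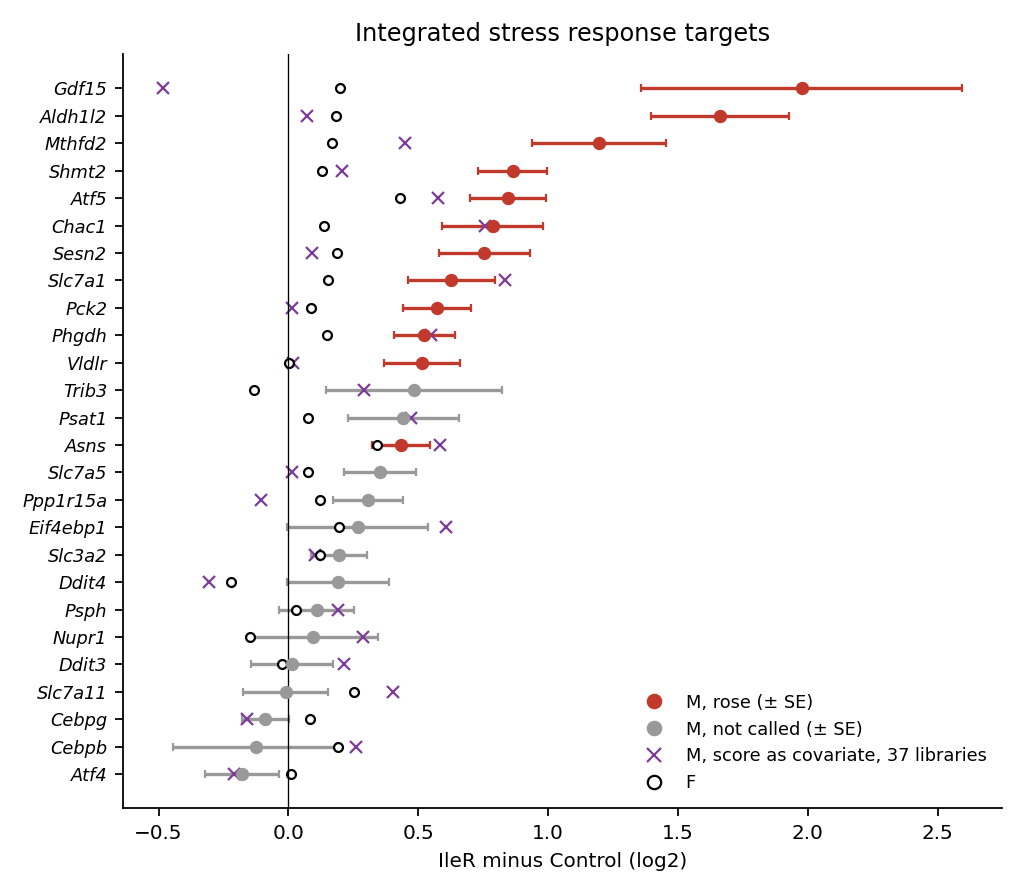
IleR minus Control (log2) for 26 of the 27 stress response targets (Fgf21 left out, being at 0 in Control): filled circles are the male comparison with SE, crosses the male comparison in 37 libraries with the hindbrain score as covariate, open circles the female comparison. Asns, Atf5, Chac1, Phgdh and Slc7a1 lie right of 0 in all 3, while Aldh1l2, Pck2 and Vldlr lie at 0.07, 0.01 and 0.02 with the covariate.

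Promoters of these genes were read from RefSeq sequences of GRCm38.p6, because ATF4 binds composite C/EBP-ATF elements. The letters TGATGNAA, on either strand, were searched in the 250 bases before and 50 after the start of transcription, a choice made after the values were seen. Of 24 targets with a promoter in the table, 8 held a match, against 3.97% of 32851 promoters. Of the 12 risen targets with a promoter, 5 held one (Asns, Chac1, Fgf21, Pck2 and Vldlr), and of the 12 that were not called, 3 did. The 250 bases before the start are printed for 4 of them, 5′ to 3′ on the gene's strand, with the match in capitals.
Asns, chr6:7693210-7693459, minus strand: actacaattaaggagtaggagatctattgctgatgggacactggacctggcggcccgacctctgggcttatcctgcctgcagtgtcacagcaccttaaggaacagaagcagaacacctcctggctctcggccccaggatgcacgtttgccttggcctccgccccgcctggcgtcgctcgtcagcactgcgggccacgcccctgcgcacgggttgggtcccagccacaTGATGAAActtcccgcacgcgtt
Chac1, chr2:119350992-119351241, plus strand: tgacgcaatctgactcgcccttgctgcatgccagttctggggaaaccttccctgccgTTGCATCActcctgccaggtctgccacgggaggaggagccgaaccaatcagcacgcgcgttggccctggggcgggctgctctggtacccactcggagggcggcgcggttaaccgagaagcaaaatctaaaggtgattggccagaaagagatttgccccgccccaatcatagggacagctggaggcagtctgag
Fgf21, chr7:45615491-45615740, minus strand: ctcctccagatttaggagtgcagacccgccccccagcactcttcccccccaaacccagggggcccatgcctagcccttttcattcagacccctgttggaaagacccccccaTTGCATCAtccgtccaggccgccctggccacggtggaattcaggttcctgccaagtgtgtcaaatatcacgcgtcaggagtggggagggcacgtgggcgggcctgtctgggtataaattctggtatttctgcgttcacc
Pck2, chr14:55540016-55540265, plus strand: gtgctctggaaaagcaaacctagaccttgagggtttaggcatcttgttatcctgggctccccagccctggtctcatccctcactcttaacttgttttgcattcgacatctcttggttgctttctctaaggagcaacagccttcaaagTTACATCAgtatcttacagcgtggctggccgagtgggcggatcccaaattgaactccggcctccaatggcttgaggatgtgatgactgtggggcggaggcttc
The match in Asns began 23 bases before the start, and those in Chac1, Fgf21 and Pck2 began 193, 139 and 103 bases before it and read on the other strand. A match is a run of letters and not a bound site.

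The cytosolic aminoacyl-tRNA synthetases, which charge tRNA with amino acids and include ATF4 targets, showed 6 of 20 that rose and none that fell, with a median log2 difference of 0.24, a share of 30% against 6.63% over all genes. Nars, Aars and Sars, for asparagine, alanine and serine, rose by 0.50, 0.37 and 0.35 (SE 0.13, 0.10 and 0.11), and Mars, for methionine, by 0.38. Nars was at 234, 229.7, 238 and 235 CPM in Control and at 338, 363 and 294 CPM in IleR. The isoleucyl-tRNA synthetase Iars was at 74.9, 83.5, 73.6 and 82.2 CPM and at 92.3, 108 and 90.7 CPM, and did not pass (0.31 ± 0.12, adjusted p = 0.108, edgeR). None of the 20 rose without IleR 14, 1 did without Control 1 or without Control 5, and 2 did without Control 3 or without IleR 17.

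Genes that handle branched-chain amino acids changed by small amounts. Of 15 genes of isoleucine and valine breakdown beyond the dehydrogenase, 7 rose (46.7% against 6.63% over all genes) and none fell (median 0.31), and 6 of the 7 rose with the score in females. Hibch and Hibadh, of the valine branch, rose by 0.53 and 0.45 (log2). Among the 8 transaminase and ketoacid dehydrogenase genes, Ppm1k, the phosphatase that activates the dehydrogenase, fell by 0.55 (SE 0.09), and it fell with the score in females. The mitochondrial transaminase Bcat2 was at 14.5, 16.4, 15.3 and 16.2 CPM in Control and at 12.6, 11.1 and 16.6 CPM in IleR, and the inhibitory kinase Bckdk at 29.6 to 34.9 CPM and at 34.4 to 35.9 CPM. Neither passed (adjusted p = 0.340 and 0.341, edgeR). Of 11 transporters, Slc25a44, Slc6a17 and Slc7a8 fell, by 0.47, 0.56 and 0.69, a share of 27.3% against 8.67% over all genes, and 2 of the 3 fell with the score in females. Slc25a44 and Slc6a17 did not pass in 4 of the 7 fits that left out 1 library (without Control 1, Control 3, IleR 13 or IleR 14), and Slc7a8 in 5, all but those without Control 1 or Control 4.

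Among 41 genes of amino acid sensing and mTORC1, 3 rose (Itfg2, Sesn2 and Fnip2) and 1 fell, the arginine sensor Castor2 (-0.36 ± 0.11), with a median of -0.02. Castor2 passed in only 1 of the 7 fits that left out 1 library, that without Control 5. These shares, 7.32% and 2.44%, stand against 6.63% and 8.67% over all genes. Of 40 core autophagy genes, 3 rose (7.5%) and 6 fell (15%), all 9 in the region-tracking classes, among them Optn (0.74) and Atg9a (-0.45). Of 24 genes of amyloid precursor processing and clearance, 3 rose and none fell: Apoe, Psen2 (0.48 ± 0.11) and the lipid transporter Abca7 (0.81 ± 0.21). Abca7 differed by 0.73 without Control 4 and by 0.90 without IleR 13, and did not pass without IleR 14 or IleR 17 (adjusted p = 0.0502 and 0.107, edgeR). App was at 2015, 2043, 1847 and 2209 CPM in Control and at 1747, 1763 and 1599 CPM in IleR (-0.25 ± 0.10, adjusted p = 0.123, edgeR). All 3 IleR values lay below all Control values, and DESeq2 called the fall (-0.27, adjusted p = 0.00709). Mapt was at 561 to 652 CPM and at 517 to 524 CPM (adjusted p = 0.222). Reads of the human transgenes may map to the mouse genes, and their part was not tested. Of 20 tau-related and tau kinase genes, 1 rose and 10 fell, all in the region-tracking classes, among them the CDK5 activators Cdk5r2 (-1.61 ± 0.19) and Cdk5r1 (-1.48 ± 0.26). Of 18 clock genes, 6 fell and 1 rose, again in those classes, with Npas2 falling by 2.50.

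The immediate early genes are induced by neuronal activity, and 14 of the 24 fell, as given above. Egr1 was at 307, 502, 102 and 261 CPM in Control 1, 3, 4 and 5 and at 30.8, 35.0 and 43.8 CPM in IleR 13, 14 and 17 (-3.00 ± 0.42, adjusted p = 0.00111, edgeR). Egr3 fell by 5.21, Homer1 by 2.94, Ier5 by 2.09 and Junb by 1.55 (log2). Control 4, the Control library with the highest hindbrain score, was the lowest Control library for each of these. In the 37-library fit with the score, the median of the list was -0.38 and none of the 24 passed. The cAMP response element TGACGTCA, which CREB binds and which reads the same on both strands, was in 2 of 19 promoters found for the list, against 1.79% of all promoters. Both genes, Dusp1 and Btg2, did not pass in IleR. The shorter run TGACG, part of the full element, was in the 250 upstream bases of 14 of the 19, 6 of the 10 that fell and 8 of the 9 that were not called; over all promoters, with 50 bases more, 20.8% held it. The upstream 250 bases of Dusp1 with the full element in capitals, and of Nr4a1, which fell by 2.08 (log2), with each TGACG, on either strand, in capitals, are as follows.
Dusp1, chr17:26508473-26508722, minus strand: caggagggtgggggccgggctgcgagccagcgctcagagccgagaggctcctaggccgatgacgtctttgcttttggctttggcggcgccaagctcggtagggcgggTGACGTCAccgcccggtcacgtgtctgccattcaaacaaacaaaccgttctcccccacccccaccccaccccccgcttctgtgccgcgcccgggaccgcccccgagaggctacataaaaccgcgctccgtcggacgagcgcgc
Nr4a1, chr15:101266596-101266845, plus strand: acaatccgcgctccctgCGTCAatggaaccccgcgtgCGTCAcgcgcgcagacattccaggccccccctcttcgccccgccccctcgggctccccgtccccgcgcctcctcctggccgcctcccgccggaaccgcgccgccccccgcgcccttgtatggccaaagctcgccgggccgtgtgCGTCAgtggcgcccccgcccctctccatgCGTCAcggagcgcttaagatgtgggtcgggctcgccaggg

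The female comparison gave no calls, and the difference between the sexes was tested directly. IleR against Control in 11 female libraries called 0 of 20344 genes (edgeR), with 577 at an unadjusted p under 0.05 and a smallest adjusted p of 0.140. The difference of the 2 effects, male minus female, passed in 22 genes, all lower in males (0.0979% of 22465), among them Tbr1 (-6.97), Emx1 and Rxfp1 (-4.81). No gene passed when the same term was fitted with limma voom, with 4282 at an unadjusted p under 0.05. In females, Tbr1 differed by 0.11 and Rxfp1 by 0.11 (log2). The male groups lay apart in hindbrain score and the female groups overlapped. In the male minus female term, sex and the regional makeup of the samples therefore cannot be told apart. The stress response list had a female median of 0.13, with 22 of 26 genes positive, against -0.01 over all genes. Asns and Atf5 differed by 0.34 and 0.43 (log2) in females and did not pass after adjustment over all genes, and no member of the list passed the test of the difference between the sexes. Gpnmb differed by 0.78 in females and did not pass there (adjusted p = 1, edgeR), and its difference between the sexes had an adjusted p of 0.0574 (edgeR).

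Against the other restricted diets in males, no gene was called: 0 of 22197 between IleR and ValR (edgeR), with 628 at an unadjusted p under 0.05, and 0 between IleR and LeuR, with 2512. LeuR and ValR share the 4 Control libraries with IleR. Against those, 845 genes rose in LeuR (3.81%) and 2469 in ValR (11.1%). Of the 27 stress response targets, 0 rose in LeuR and 8 in ValR, with medians of -0.0025 and 0.21 (log2), against 13 and 0.44 in IleR. The direct difference of Asns was 0.42 between IleR and ValR and 0.56 between IleR and LeuR, and that of Atf5 0.60 and 1.02, none of them past the threshold. Gpnmb rose by 2.39 in LeuR and by 2.65 in ValR, against 3.49 in IleR.

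With the hindbrain score as a covariate in 1 fit of all 37 libraries, 1 gene remained called for IleR in males, at 10.7% of 22465 genes with an unadjusted p under 0.05. That gene was Banp, a nuclear matrix protein that binds methylation-sensitive CGCG motifs. It was at 36.7, 38.2, 23.4 and 37.1 CPM in Control and at 13.7, 13.8 and 20.3 CPM in IleR, and fell by 1.15 in that fit (adjusted p = 0.0360, edgeR) and by 1.09 without the score. With 3 regional levels in place of the score it did not pass (-1.01, adjusted p = 0.0949, edgeR). In the comparison without a covariate it fell by 1.23 without Control 4 and by 1.00 without IleR 13, and passed in all 7 fits that left out 1 library. In this fit, 7 of the 27 stress response targets were higher and 0 lower at an unadjusted p under 0.05, with a list median of 0.22 against -0.01 over all genes, and 6 of the 20 disease-associated and 6 of the 14 homeostatic microglial genes were higher and none lower. Of 16 interferon response genes, 8 were lower and none higher at an unadjusted p under 0.05. Their mean level was 4.48 log2 CPM in male Control 5 and 2.36 to 3.20 in the other male Control libraries. In male IleR it was 2.49 to 2.75. The part of Control 5 in this count was not tested. In the 37-library score fit Asns differed by 0.58, Slc7a1 by 0.83 and Gpnmb by 2.94 (log2), with adjusted p of 0.274, 0.258 and 0.258 (edgeR). With the score in the 14 male libraries alone, Asns differed by 0.23 and Gpnmb by 0.74, against 0.43 and 3.49 without a covariate. Of the 274 genes called in the class outside the region-tracking ones, 273 had the same sign in the 37-library score fit. That fit shares the 7 male libraries, and in it 69 kept less than 50% of their difference, with a median of 65.6% kept. With the score in the 14 male libraries 139 kept less than 50%, with a median of 49.7%. With 3 regional levels in 37 libraries 137 did, with a median of 50.3%. Of the 274, 151 had the same sign in the female comparison.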

How the data were processed

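RNA from brains of 3xTg mice was sequenced, and the authors deposited expected counts per Ensembl gene on GRCm38.p5. The aligner is not given in the sources used here. The processing notes name R 3.4.3, edgeR and limma. The labels describe both polyA enrichment and a total RNA kit. The authors removed outliers after principal component analysis. Their tables of log2 fold changes and p-values were not used. Another 10 labelled male libraries are not analysed here.

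Expected counts were rounded. The genes tested had a count of 1 or more throughout some diet group, and were tested with edgeR 4.0.16 (quasi-likelihood, TMM, Benjamini-Hochberg, adjusted p under 0.05) in 1 fit of the 14 male libraries. Fits of the female libraries, of all 37 and with the hindbrain score as covariate used the same test in R 4.3.3, with limma 3.58.1 and DESeq2 1.42.0 as alternatives. Scripts were tested on simulated data. List levels are mean log2 CPM over members tested in both sexes, with a prior count of 2, and a floor of 3 counts per library bounds folds. Totals per library were 10672599 to 25722333, and floors cover counting error only. Gene symbols were missing for 3333 of 55416 IDs. Near-identical gene copies and antisense overlaps may share reads.

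Named genes were the 10 with the largest change each way, not overlapping between groups and averaging 1 log2 CPM or more, the 6 each way outside the regional classes and lists, up to 4 per list by smallest p, 8 fixed genes, and genes called with the score as covariate. Other genes were named after their values were seen. The members and lists were chosen with earlier results of these data known. Replicates are separate libraries of a group in the labels, and p-values measure the spread between these libraries. Alternatives were other normalizations, filters, thresholds, tools and covariates, and leaving out each library. Some genes that met these rules are not reported here.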

Additional observations from a re-analysis of the deposited data

Results flagged for a closer look

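Among the 4 male Control libraries, 1 library lay far from the other 3 in 12 measures, judged by Dixon's ratio of its gap to the range at the 95% level, which chance passes in about 1 of 20 groups. The number of measures examined is not given here, so the 12 cannot be set against that rate. They come from the same 4 libraries and are not independent of each other. Control 4 was the low library for Tbr1 (ratio 0.928), Banp (0.920), Abca7 (0.879), Mef2c (0.878), Dkkl1 (0.876), Gm11549 (0.852) and Atg9a (0.848). It was the high library for Slc6a3 (0.918), Th (0.833) and the mean level of 7 hypothalamus genes (0.868). Control 3 was the high library for Hoxb2 (ratio 1), which had 1 count there and 0 in the other 3. Control 5 was the low library for the mean level of the glutamate receptor list (0.841), at 5.97 against up to 6.21 log2 CPM.

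The IleR effect differed between males and females in 7 of the genes described by edgeR, while limma voom called 0 of 22465 genes for this difference (smallest adjusted p = 0.103, with 4282 at an unadjusted p under 0.05). Male minus female (log2, edgeR with Benjamini-Hochberg adjustment), the difference was -6.97 for Tbr1, -7.22 for Gm11549, -7.41 for 9130024F11Rik, -5.03 for Emx1 and -4.81 for Rxfp1, each with an adjusted p of 0.0430. 9130024F11Rik was at or under 3 counts in every male IleR library, so its fitted value depends on the prior count. For Banp and Ier5 the difference was -0.93 and -2.37, each with an adjusted p of 0.0490. The mean hindbrain score differed by 8.24 between the male groups, while the female means were -4.71 in IleR and -4.54 in Control. A sex difference in the diet effect and the regional makeup of the samples cannot be told apart in this term.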

How the results depend on the processing

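No paired analysis was possible because no replicate number is shared between the groups. Leaving out 1 library at a time gave 648 to 1970 genes that rose and 1110 to 2387 that fell, 34 to 448 and 25 to 280 in the class that followed the score in neither direction, 4 to 12 stress response targets, 0 to 4 aminoacyl-tRNA synthetases, 11 to 15 immediate early genes and a score difference of 7.87 to 8.97. At an adjusted p under 0.01, 506 genes rose and 964 fell, with 19 and 16 in that class, 6 stress response targets and 0 synthetases. DESeq2 called 266 and 236 genes of that class. With no filter on low counts 69 genes of that class fell and 3 synthetases rose. With the score as covariate in the 14 male libraries, 1 gene rose and 0 fell, 1 and 0 of that class, and 0 stress response, synthetase and immediate early genes passed. In 37 libraries 0 rose and 1 fell, 0 and 1 of that class, and with 3 regional levels in place of the score all these counts were 0. The test of the difference between sexes called 0 genes with limma voom. The cause of these changes was not tested. Some named genes changed sign in the fits with a regional covariate, given as IleR minus Control on the log2 scale. With the score in 37 libraries these were Abca7 -0.71, Adora2a 1.67, App 0.11, Aqp4 -0.42, Arhgef33 -1.03, Bckdk -0.022, Btg2 0.11, Calb2 -0.039, Car8 -2.74, Cbln1 -1.23, Cbln3 -1.97, Cnpy1 -2.44, Dusp1 0.0049, Fat2 -1.78, Fnip2 -0.29, Hibadh -0.0094, Hoxb2 -0.77, Il20rb -1.31, Itfg2 -0.20, Junb 0.063, P2ry12 0.43, Pcp2 -1.24, Ppp1r17 -0.72, Psen2 -0.076, Skor1 -0.20, Slc1a2 0.095, Slc4a4 -0.41, Spp1 -0.043, Tmem119 0.19 and Zic1 -0.67. With the score in 14 libraries they were Aars -0.044, Abca7 -0.21, Aqp4 -0.43, Cdk5r1 0.48, Ctsd -0.30, Egr3 0.59, Grin2b 0.62, Hibadh -0.12, Iars -0.25, Kcnj4 1.05, Mapt 0.26, Mthfd2 -0.58, Nars -0.062, P2ry12 1.36, Sesn2 -0.15, Slc25a44 0.25, Slc6a17 0.18, Slc7a8 0.10, Spp1 -0.90, Tmem119 0.59 and Trem2 -0.064. With 3 levels in 37 libraries they were Abca7 -0.48, Adora2a 1.08, App 0.044, Aqp4 -0.29, Bckdk -0.0081, Btg2 0.13, Car8 -0.69, Cdk5r1 0.12, Cdk5r2 0.018, Cnpy1 -0.86, Dusp1 0.15, Fnip2 -0.13, Grin2b 0.42, Hibadh -0.026, Hoxb2 -2.21, Itfg2 -0.16, Junb 0.15, Npas2 0.16, Nr4a1 0.057, P2ry12 0.60, Psen2 -0.034, Slc1a2 0.083, Slc25a44 0.10, Slc4a4 -0.30, Slc6a17 0.047, Slc6a5 -0.013, Slc7a8 0.019, Spp1 -0.16 and Tmem119 0.29. Slc6a3 ranged from -2.17 without IleR 13 to 9.31 without Control 4. Of 90 named genes that were called, 50 passed in every fit that left out 1 library and 40 did not pass in at least 1, with 33 not passing without IleR 14, 20 each without IleR 13 or Control 3, 19 without IleR 17, 15 without Control 1, 12 without Control 5 and 5 without Control 4. Hoxb2 passed in 0 of the 7 fits, and Aars, Castor2 and Hoxa2 did not pass in 6. Apoe, Ctsd, Fgf5, Mars, P2ry12, Sars, Slc18a3, Slc5a7, Slc7a8 and Vldlr did not pass in 5, and Slc1a2, Slc25a44, Slc6a17 and Tmem119 in 4. Fezf2, Nr4a2 and Spp1 did not pass in 3, and Abca7, Adora2a, Nars, Nwd2 and Slc7a1 in 2. Calls were gained by App with DESeq2, Trem2 in a fit of only the 7 libraries, and Th and Slc6a3 without Control 4.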

Other observations

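Of 36 subunits of mitochondrial complex I, 7 rose and none fell, with a median log2 difference of 0.18, and 3 of the 7 were in the class that followed the hindbrain score in neither direction. Of 23 genes of cholesterol synthesis and uptake, 4 fell and 1 rose, with a median of -0.19. Of 20 heat shock and chaperone genes, 5 fell and 1 rose. Insulin and IGF signaling genes showed 5 falls among 23, and thyroid hormone handling genes 3 among 9, with no rise in either list. All falls in the last 4 lists, and the rise of the heat shock list, were in the classes that followed the score. The shares that fell were 17.4%, 25%, 21.7% and 33.3% in the cholesterol, heat shock, insulin and thyroid lists against 8.67% over all genes, and the shares that rose 19.4% for complex I, 4.35% for the cholesterol list and 5% for the heat shock list against 6.63%.

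Vascular, meningeal and blood markers showed no calls by edgeR: 0 of 14 endothelial, 0 of 8 mural, 0 of 12 meningeal and 0 of 5 red blood cell genes passed. Red blood cell genes summed to 581 to 4117 CPM in Control and to 1440.0 to 2052 CPM in IleR. None of 16 interferon response genes passed, with a median of -0.93. Their mean level was highest in Control 5, at 4.48 log2 CPM, against 2.36 to 3.20 in the other Control libraries and 2.49 to 2.75 in IleR.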
